A study of Mus musculus with 21 samples.

Results

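The voltage-gated ion channels described here are 41 genes of the 55400 in the count table, a given list of sodium, calcium, potassium and Hcn channel genes that leaves out 37 other voltage-gated channel genes. All 41 were found: 4 sodium channel alpha subunits, 3 sodium channel beta subunits, 8 calcium channel alpha1 subunits, 7 auxiliary calcium channel subunits, 16 potassium channels and 3 Hcn channels. Their RNA was measured by poly-A RNA-seq during the directed differentiation of wild-type C57BL/6 mouse embryonic stem cells (mESCs) into motor neurons (MNs). Untreated cultures were taken at day 4 (D4), 8 hours later (D4H8), day 5 (D5) and day 6 (D6), and GSKJ4 cultures at D4H8, D5 and D6, with 3 libraries in each of the 7 groups. All groups were WT and followed the protocol for hypaxial motor column neurons: stem cells kept on mitomycin-treated fibroblasts were grown as embryoid bodies, given 1 µM retinoic acid and 0.5 µM of the Sonic Hedgehog agonist SAG, and given 5 µM of the Notch inhibitor DAPT at D4 and again at D5, then in medium that lacked retinoic acid and SAG. Whether the D4 cultures were harvested before DAPT was added is not stated. GSKJ4, an inhibitor of the H3K27 demethylases Kdm6a and Kdm6b, was added 1 day before harvest, from D3H8 to D4H8, from D4 to D5 or from D5 to D6. Its dose in these cultures and the treatment of the untreated cultures with a vehicle are not given in the sources used here. The mESCs are 1 line, and each library is an unsorted culture.

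Voltage-gated channels open or close with the membrane potential. Sodium channel alpha subunits carry the upstroke of the action potential, potassium channels repolarise the membrane and set firing patterns, calcium channels couple depolarisation to transmitter release and to signalling inside the cell, and Hcn channels carry the hyperpolarisation-activated current. Auxiliary subunits (sodium channel beta, calcium channel alpha2delta and beta) form no pore and set the surface density and gating of the pore-forming subunits. Neurons acquire these channels as they leave the cell cycle and mature.

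The libraries held 14982115 to 34383842 counted reads each, with a median of 16238435, and D4H8 replicate 1 was the deepest. D5 + GSKJ4 replicate 2 stood apart: 39381 genes had no count in it, against 29339 to 32805 in the other 20 libraries, and 10 of the 41 channel genes had no count, against 0 to 4 elsewhere. These were *Scn4b*, *Cacna1d*, *Cacna1i*, *Cacnb2*, *Cacnb4*, *Kcna1*, *Kcna3*, *Kcna4*, *Kcnc2* and *Kcnd2*. GEO's labels give the cell type as differentiated motor neuron in every library, and the neuronal markers followed the stage. *Chat*, the enzyme of acetylcholine synthesis, had a mean of 0.227 FPKM (fragments scaled by exon length and by library size) at D4 and 27.1 at D6. Of 6 progenitor markers, 4 fell from D4 to D6 and 1 rose. *Olig2*, a progenitor factor, had 47.5 FPKM at D4 and 1.24 at D6, while *Vim* had 68.0 and 146. The summed FPKM of the 6 ranged from 182 to 245 at D4 and from 164 to 219 at D6. The summed FPKM of 10 pan-neuronal markers ranged from 38.98 to 76.99 at D4 and from 3477 to 4081 at D6, and that of 8 MN markers from 9.49 to 24.2 and from 612 to 672. Markers of other cells stayed in the D6 cultures: 5 pluripotency markers summed to 121 to 285 FPKM at D4 and 11.2 to 90.6 at D6, and 7 fibroblast markers to 5.28 to 20.4 and 13.4 to 29.2, where 2 of the 7 rose. At D4 and at D6, 8 interneuron markers summed to 1.5 to 2.01 and 2.98 to 3.08 FPKM, 4 endothelial markers to 1.43 to 3.07 and 1.52 to 3.89, and 6 glial markers to 6.39 to 8.90 and 8.09 to 10.7. Of these, 3 of 6 tested interneuron, 2 of 4 endothelial and 2 of 3 glial markers rose and 1 glial marker fell, and their part in the channel values was not tested. In these bulk samples, fewer cells of a type and less RNA per cell cannot be told apart.

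Most of the channel genes were low in the D4 cultures and higher in the D6 cultures. The number with a mean of at least 1 FPKM was 11 of 41 at D4, 14 at D4H8, 20 at D5 and 26 at D6, and 38 of the 41 had their highest untreated mean at D6. Between D4 and D6, 34 of the 38 members that passed the filter on low counts rose and 1 fell (edgeR's quasi-likelihood test, Benjamini-Hochberg adjusted p under 0.05 over all tested genes). Of all 17519 genes tested, 32.9% rose and 31.0% fell. The median log2 fold change, D6 over D4, was 3.53 over the 38 members and -0.04 over all tested genes. In counts scaled to library size, the D6 libraries all lay above the D4 libraries for 34 members and all below them for 1, against 34.4% and 35.8% of all tested genes. *Scn4b*, *Kcna1* and *Kcna4* did not pass the filter, and *Cacna1i*, *Cacnb2* and *Kcnc4* were tested and not called. A gene could pass the filter through the 3 libraries of 1 stage. *Kcnc2*, with a mean of at most 3 counts at D4, D4H8 and D5, and *Kcna2*, with few counts before D6, passed through D6 alone. *Kcnd2*, with a mean of at most 3 counts at D4 and D4H8, also needed its D6 libraries to pass. *Kcna3* passed through D4 and D4H8, where it was high. The rises of *Kcnc2*, *Kcna2* and *Kcnd2* to D6 and the fall of *Kcna3* are thus not independent of the filter. Of the 24 members with at least 10 counts in every untreated library, 23 rose and 0 fell, where 34.3% and 34.2% of all such genes did. The 10 pan-neuronal and 8 MN markers rose over the same interval, and the part of neuron number in the channel values was not tested.

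**Figure D1:**
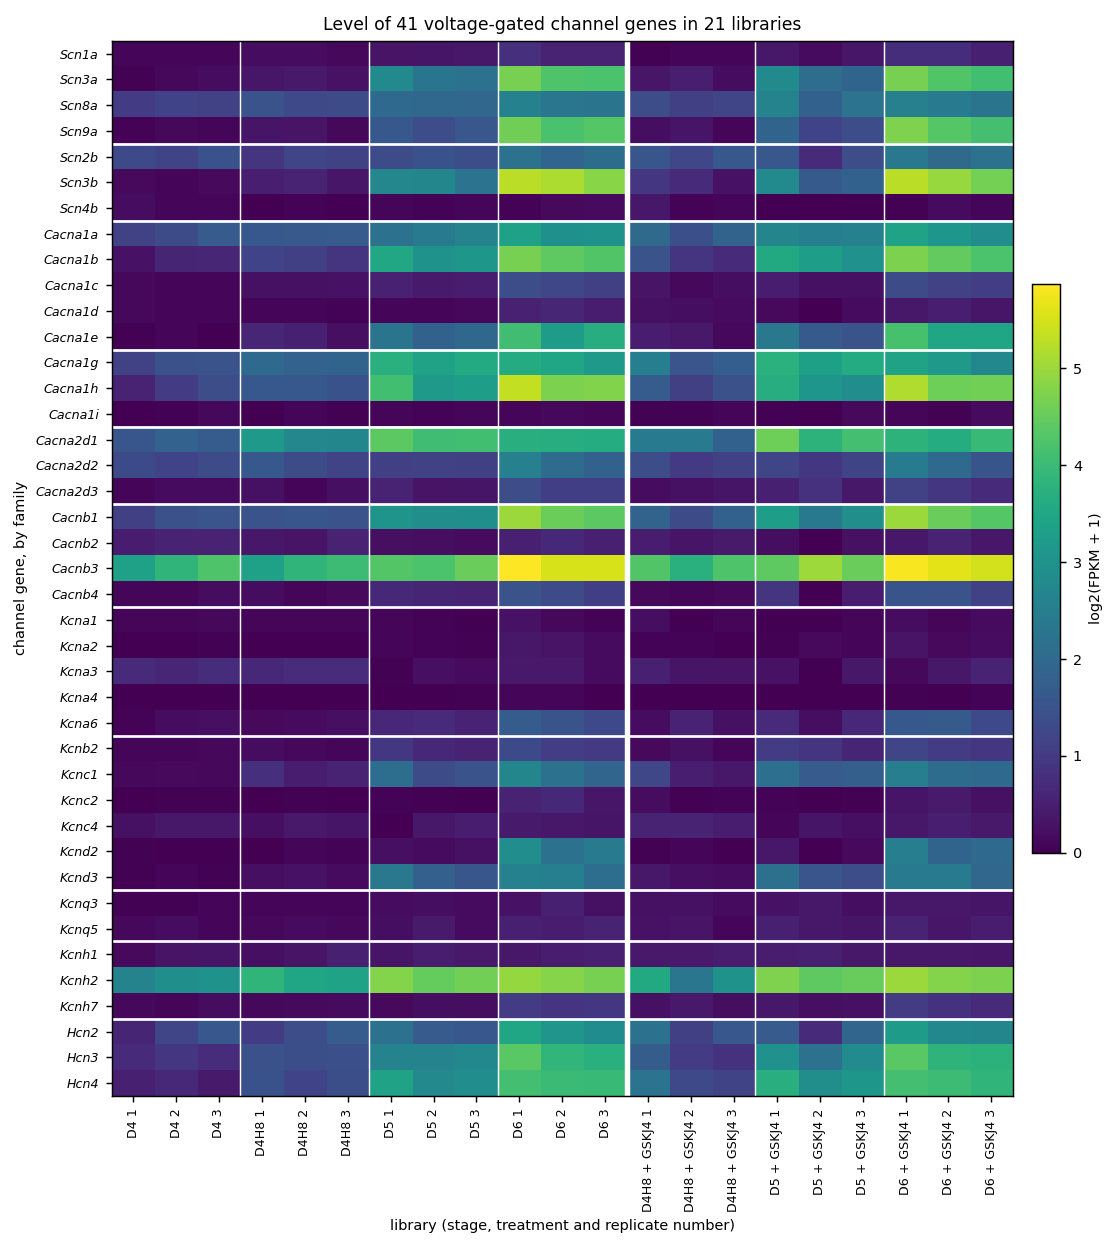
Level of the 41 channel genes (rows, by family, white lines between families) in the 21 libraries (columns), as log2(FPKM + 1), with untreated libraries to the left of the thick line and GSKJ4 libraries to its right. *Cacnb3* and *Kcnh2* were the highest members at D4, and 26 genes had a mean of at least 1 FPKM at D6 against 11 at D4.

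**Figure D2:**
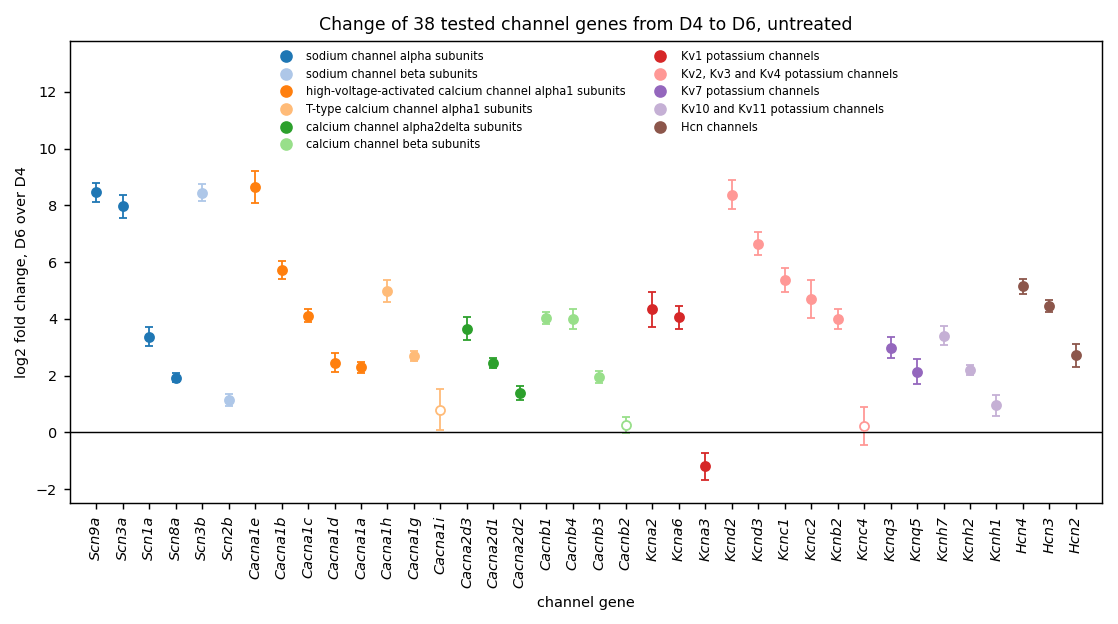
Log2 fold change, D6 over D4 in untreated cultures, of the 38 tested channel genes, coloured by family, with bars of 1 SE. Filled points have an adjusted p under 0.05 and open points do not. *Cacna1e* had the largest value (8.66), and *Kcna3* was the only called gene below 0 (-1.20). The point of *Kcnd2* depends on a prior count, since its D4 libraries were at the floor.

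RefSeq promoter windows on GRCm38.p6 were at hand for 32 of the 41 members (45 windows), and the 250 bases before the start were read in each. Member windows held more CpG than promoters at large, given as a description: the median observed over expected CpG ratio was 0.608 against 0.373 over all 32851 windows, the median GC content 62.8% against 52.4%, and 51.1% against 31.0% of windows were CpG-rich (GC of at least 50% and a ratio of at least 0.6). The E-box CAGCTG, the same on both strands, was found in 26.7% of member windows and 13.0% of all windows, and CAGATG, on either strand, in 11.1% and 14.4%. Some genes had several windows, and those of *Kcnc2* partly overlap, so windows are not independent. The 12 member windows with CAGCTG belonged to *Cacna1b*, *Cacna1d*, *Cacna2d3*, *Cacnb2*, *Cacnb4*, *Kcna2*, *Kcnc2* and *Kcnd3*, with more than 1 from *Kcnc2* and from *Cacnb2*. The homeodomain core TAATTA was found in 0.0% and 4.84%, the Onecut core ATCAAT in 2.22% and 6.72%, and GGACAG, part of the element bound by the neuronal repressor REST, in 8.89% and 18.7%. Shown here, 5′ to 3′ on the gene's strand, are the windows of the 4 genes with the largest rise from D4 to D6 that had a single window lying outside the annotated gene. Capitals mark CAGCTG.
Scn9a (chr2:66634963-66635212, minus strand): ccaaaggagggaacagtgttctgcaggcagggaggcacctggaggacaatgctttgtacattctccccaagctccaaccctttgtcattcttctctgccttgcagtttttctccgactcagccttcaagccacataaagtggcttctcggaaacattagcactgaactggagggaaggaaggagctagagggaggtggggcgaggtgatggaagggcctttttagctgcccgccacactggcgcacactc
Kcnd2 (chr6:21215096-21215345, plus strand): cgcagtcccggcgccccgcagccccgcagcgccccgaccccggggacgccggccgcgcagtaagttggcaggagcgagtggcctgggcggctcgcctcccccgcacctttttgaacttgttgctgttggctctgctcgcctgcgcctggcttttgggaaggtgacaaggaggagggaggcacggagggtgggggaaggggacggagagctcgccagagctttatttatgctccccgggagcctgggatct
Kcnd3 (chr3:105451640-105451889, plus strand): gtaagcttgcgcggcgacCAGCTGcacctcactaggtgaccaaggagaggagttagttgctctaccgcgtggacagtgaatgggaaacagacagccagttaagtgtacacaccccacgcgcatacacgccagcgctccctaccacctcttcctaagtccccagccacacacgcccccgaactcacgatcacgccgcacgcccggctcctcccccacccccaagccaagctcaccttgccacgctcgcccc
Cacna1b (chr2:24763153-24763402, minus strand): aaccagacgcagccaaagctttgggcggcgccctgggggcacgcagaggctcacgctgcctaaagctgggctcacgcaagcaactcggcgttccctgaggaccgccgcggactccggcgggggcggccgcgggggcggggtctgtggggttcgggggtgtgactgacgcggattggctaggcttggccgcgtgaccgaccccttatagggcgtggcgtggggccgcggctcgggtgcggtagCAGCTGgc
*Kcnd3* and *Cacna1b* held 1 CAGCTG each, and *Scn9a* and *Kcnd2* held none. The *Scn9a* window had a GC content of 54.4% and a CpG ratio of 0.271, the lowest of these 4, and the *Cacna1b* window 72.0% and 0.924.

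Sodium channel alpha subunits form the pore of the channel that drives the action potential, and all 4 members rose. *Scn9a* (Nav1.7, a channel of peripheral and motor axons) was at 0.04, 0.09 and 0.05 FPKM in the D4 libraries, 0.26, 0.24 and 0.09 at D4H8, 2.09, 1.62 and 2.02 at D5 and 23.4, 17.3 and 19.1 at D6. Each D6 library was above each D5 library, and its log2 fold change, D6 over D4, came to 8.45 (SE 0.35, adjusted p = 3.12e-10). *Scn3a* (Nav1.3, the embryonic neuronal isoform) followed a like course, with 0.02, 0.09 and 0.15 FPKM at D4, 0.27, 0.33 and 0.22 at D4H8, 6.02, 3.9 and 3.65 at D5 and 24.4, 18.01 and 17.4 at D6. Its D6 over D4 log2 fold change came to 7.97 (SE 0.41, adjusted p = 1.55e-09). *Scn8a* (Nav1.6, the main isoform of mature nodes of Ranvier) was already present at D4, at 1.18 ± 0.105 FPKM (mean ± SD, n = 3, as for all means below), and reached 4.24 ± 0.678 at D6, a log2 fold change of 1.92 (SE 0.16, adjusted p = 1.65e-07). *Scn1a* (Nav1.1) stayed low, rising from 0.0633 ± 0.0153 to 0.590 ± 0.147 FPKM.

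The makeup of the summed sodium channel alpha subunit RNA differed between D4 and D6 as well as its size, in shares that were not tested. Over all 9 *Scn* alpha subunit genes, 5 of which are not among the 41, *Scn8a* made up 38.5% ± 2.83 of the summed FPKM at D4 and 8.27% ± 0.216 at D6. At D6 the largest shares were those of *Scn9a* (38.9% ± 1.79) and *Scn3a* (38.7% ± 1.30), which did not differ beyond their spread and which had 1.93% ± 0.713 and 2.67% ± 1.87 at D4. The sum over all 9 genes was 3.07 ± 0.399 FPKM at D4 and 51.3 ± 8.75 at D6, and the sum over the 4 members was 1.39 ± 0.172 FPKM at D4 and 44.7 ± 7.70 at D6.

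Sodium channel beta subunits are adhesion-like partners of the pore. *Scn3b* rose most, from 0.11, 0.06 and 0.11 FPKM at D4 through 0.41, 0.5 and 0.28 at D4H8 and 5.55, 5.49 and 3.72 at D5 to 37.7, 34.6 and 27.3 at D6. No library of one stage overlapped with the next, and its log2 fold change, D6 over D4, came to 8.45 (SE 0.31, adjusted p = 1.48e-10). *Scn2b* rose late, from 1.67 ± 0.140 FPKM at D5 to 3.19 ± 0.395 at D6, and *Scn4b*, which takes part in resurgent sodium current, was at 0.0867 ± 0.0473 FPKM at D4, 0.06 ± 0.02 at D5 and 0.09 ± 0.0436 at D6.

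Calcium channel alpha1 subunits of the high-voltage-activated group open with strong depolarisation, and all 5 members rose between D4 and D6. *Cacna1b* (Cav2.2, the N-type channel of transmitter release) was the highest of them at D6. Its levels were 0.22, 0.53 and 0.55 FPKM at D4, 1.27, 1.17 and 0.87 at D4H8, 10.6, 7.13 and 7.57 at D5 and 24.6, 20.3 and 18.5 at D6, with a D6 over D4 change of 5.72 (SE 0.31, adjusted p = 2.23e-09) on the log2 scale. *Cacna1e* (Cav2.3, the R-type channel) had the largest log2 fold change of the set, 8.66 (SE 0.56, adjusted p = 1.46e-08). It was at 0.02, 0.06 and 0.01 FPKM at D4, 0.56, 0.43 and 0.19 at D4H8, 3.76, 2.52 and 2.88 at D5 and 15.8, 8.37 and 11.6 at D6, and had 12, 28 and 3 counts in the D4 libraries. *Cacna1a* (Cav2.1, the P/Q-type channel of the mature neuromuscular junction) rose from 1.68 ± 0.492 to 7.71 ± 1.42 FPKM. The L-type genes stayed lower: *Cacna1c* (Cav1.2) rose from 0.0833 ± 0.0153 to 1.39 ± 0.225 FPKM, and *Cacna1d* (Cav1.3) from 0.0867 ± 0.0115 to 0.453 ± 0.0902. An exon of *Cacna1a* overlaps one of the expressed gene *Gm16183* on the other strand, and the counting strand is not stated in the sources used here, so its reads cannot be told apart from those of that gene.

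T-type calcium channels open near the resting potential, and 2 of the 3 members were above 1 FPKM at D6. *Cacna1h* (Cav3.2) rose at D5 and again at D6, with 0.5, 1.06 and 1.6 FPKM at D4, 2.07, 2.07 and 1.78 at D4H8, 16.2, 7.92 and 8.71 at D5 and 39.3, 25.4 and 26.1 at D6. The first of these steps, D5 over D4H8, measured 2.48 (SE 0.35, adjusted p = 1.22e-04) on the log2 scale, and the next, D6 over D5, 1.58 (SE 0.33, adjusted p = 0.00229). *Cacna1g* (Cav3.1) levelled off after D5, with 1.60 ± 0.335 FPKM at D4, 2.77 ± 0.216 at D4H8, 10.9 ± 1.42 at D5 and 9.83 ± 1.60 at D6, and its change from D5 to D6 was -0.03 (SE 0.16, adjusted p = 0.912). Over all 10 alpha1 genes, 2 of which are not among the 41, *Cacna1h* made up 19.3% ± 4.87 of the summed FPKM at D4 and 36.3% ± 1.86 at D6, while *Cacna1g* ranged from 27.7% to 34.7% and from 10.98% to 13.9% over the libraries, and *Cacna1a* made up 32.5% ± 2.99 and 9.34% ± 0.257. *Cacna1i* (Cav3.3) had at most 20 counts in any library and a mean of 0.0667 ± 0.0208 FPKM at D6.

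Calcium channel alpha2delta subunits, auxiliary partners of alpha1, were called at different steps. *Cacna2d1* peaked at D5: the libraries were at 1.97, 2.58 and 2.27 FPKM at D4, 8.09, 5.63 and 5.5 at D4H8, 19.9, 15.9 and 16.1 at D5 and 11.9, 11.6 and 11.5 at D6. Every D6 library lay below every D5 library and above every D4H8 library. The rises were 1.46 (SE 0.17, adjusted p = 1.42e-04) and 1.43 (SE 0.17, adjusted p = 2.62e-05) on the log2 scale, and the later fall was -0.46 (SE 0.16, adjusted p = 0.0457), a call that held under 4 of 13 alternatives (adjusted p 0.0165 to 0.169) and was lost without any one of the D5 or D6 libraries. *Cacna2d2* was at 1.43 ± 0.137 FPKM at D4, 1.64 ± 0.381 at D4H8 and 1.17 ± 0.00577 at D5, was not called at either of these steps, and rose to 3.54 ± 1.19 at D6. *Cacna2d3* rose from 0.320 ± 0.139 at D5 to 1.30 ± 0.286 at D6.

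Calcium channel beta subunits lie on the inner side of the membrane and bring alpha1 to the surface. *Cacnb3* had the highest FPKM of all 41 members at D4 and at D6. Its libraries were at 9.24, 13.3 and 17.99 FPKM at D4, 9.27, 13.3 and 15.3 at D4H8, 18.7, 17.6 and 21.99 at D5 and 57.6, 44.6 and 45.1 at D6. The D4 and D4H8 libraries overlapped, the D6 libraries stood above all others, and the D6 over D4 change was 1.95 (SE 0.21, adjusted p = 2.12e-06) on the log2 scale. *Cacnb1*, the isoform of skeletal muscle that neurons also express, rose from 1.60 ± 0.401 to 24.4 ± 5.60 FPKM and *Cacnb4* from 0.1 ± 0.0436 to 1.52 ± 0.358. *Cacnb2* fell from 0.333 ± 0.123 FPKM at D4H8 to 0.157 ± 0.0351 at D5 and rose to 0.497 ± 0.0981 at D6, with log2 fold changes of -1.06 (SE 0.29, adjusted p = 0.0145) and 1.78 (SE 0.29, adjusted p = 4.62e-04). *Cacnb3* made up 86.1% ± 1.33 of the summed FPKM of the 4 beta subunits at D4 and 65.2% ± 2.13 at D6, and *Cacnb1* 10.3% ± 0.893 and 32.1% ± 1.96.

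The Kv1 potassium channels were mostly low. *Kcna6* (Kv1.6) was the highest of the 5 Kv1 members at D6 and rose, with 0.04, 0.14 and 0.19 FPKM at D4, 0.11, 0.13 and 0.19 at D4H8, 0.61, 0.64 and 0.5 at D5 and 2.28, 1.86 and 1.44 at D6. *Kcna3* (Kv1.3, best known from T cells) was the only member that fell between D4 and D6. It was at 0.65, 0.55 and 0.71 FPKM at D4, 0.6, 0.68 and 0.67 at D4H8, 0.03, 0.19 and 0.13 at D5 and 0.32, 0.33 and 0.13 at D6. The D5 and D6 libraries lay below the D4 and D4H8 libraries, with 1, 6 and 4 counts at D5 and 10, 10 and 4 at D6. On the log2 scale D5 over D4H8 was -2.39 (SE 0.52, adjusted p = 0.00363), a call that held under all 12 alternatives, and D6 over D4 was -1.20 (SE 0.47, adjusted p = 0.0385), which held under 4 of 12 (adjusted p 0.0216 to 0.162) and was lost without any one of D4 replicates 1, 2 and 3 or D6 replicates 2 and 3.

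*Kcna2* (Kv1.2, a channel of the juxtaparanode) appeared late. It had 2, 1 and 4 counts in the D4 libraries, none in any D4H8 library, 9, 7 and 5 at D5 and a mean of 0.213 ± 0.0862 FPKM at D6. Against a floor of 3 counts per library at D4H8, the D5 level was at least 2.19-fold higher, and the change from D5 to D6 was 2.63 (SE 0.53, adjusted p = 0.00254) on the log2 scale. *Kcna1* (Kv1.1) and *Kcna4* (Kv1.4) had means of 0.117 ± 0.0929 and 0.0567 ± 0.0404 FPKM at D6, and *Kcna4* had no count in any D4 library.

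The Kv2, Kv3 and Kv4 genes held some of the latest and largest rises. *Kcnd2* (Kv4.2, a channel of the dendritic A-type current) was at 0.02, 0.01 and 0.01 FPKM at D4, 0.01, 0.05 and 0.04 at D4H8, 0.18, 0.12 and 0.2 at D5 and 6.37, 3.66 and 4.33 at D6. The D4 libraries held 2, 1 and 1 counts, so the D6 level was at least 139.9-fold higher than a floor of 3 counts per library, and most of the rise came after D5 with a log2 fold change of 4.99 (SE 0.38, adjusted p = 1.17e-06). *Kcnd3* (Kv4.3) rose earlier, with 0.03, 0.07 and 0.03 FPKM at D4, 0.19, 0.22 and 0.13 at D4H8, 4.14, 2.5 and 1.95 at D5 and 5, 4.78 and 3.32 at D6. The step from D4H8 to D5 was 3.98 (SE 0.34, adjusted p = 1.63e-06) and the step from D5 to D6, where the libraries overlapped, 0.72 (SE 0.28, adjusted p = 0.0649). With the replicate number as a block, that last step was called, at 0.75 (SE 0.19, adjusted p = 0.00815).

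*Kcnc1* (Kv3.1, a channel of fast-spiking cells) had 0.1, 0.11 and 0.1 FPKM at D4, 0.73, 0.38 and 0.47 at D4H8, 3.32, 1.56 and 1.84 at D5 and 5.46, 3.63 and 2.78 at D6, and rose at each step, by 2.36, 2.07 and 0.94 on the log2 scale. The last of these had overlapping libraries and an adjusted p of 0.0399, a call lost in 6 of 13 alternatives, among them those without D5 replicate 2, D5 replicate 3, D6 replicate 1 or D6 replicate 2. *Kcnc2* (Kv3.2) was at 0.0267 FPKM at D5 and 0.463 ± 0.165 at D6, and *Kcnb2* (Kv2.2) rose from 0.08 ± 0.01 at D4 to 1.19 ± 0.265 at D6. *Kcnc4* (Kv3.4) was at 0.273 ± 0.0551 FPKM at D4 and 0.3 ± 0.0458 at D6, with no count in D5 replicate 1 and 20 and 23 in the other D5 libraries.

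Kv7 channels carry the M-current, which damps repeated firing. Both members rose from low levels, *Kcnq3* (Kv7.3) from 0.0367 ± 0.0115 FPKM at D4 to 0.280 ± 0.122 at D6 and *Kcnq5* (Kv7.5) from 0.1, 0.15 and 0.06 FPKM in the D4 libraries to 0.43, 0.38 and 0.48 in the D6 libraries. The log2 fold changes were 2.98 (SE 0.38, adjusted p = 9.97e-06) and 2.13 (SE 0.44, adjusted p = 7.91e-04).

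Among the Kv10 and Kv11 channels, *Kcnh2* (Kv11.1, also the channel of the cardiac rapid delayed rectifier) was high from the start. Its libraries were at 5.14, 6.59 and 7.01 FPKM at D4, 13.5, 10.1 and 9.44 at D4H8, 26.5, 21.2 and 23.5 at D5 and 29.9, 27.02 and 24.3 at D6, so the D5 and D6 libraries overlapped. The rises were 0.78 (SE 0.17, adjusted p = 0.0149) to D4H8, a call lost without D4 replicate 1, D4 replicate 2 or D4H8 replicate 1, and 1.11 (SE 0.17, adjusted p = 2.12e-04) to D5, and the change to D6 was 0.30 (SE 0.16, adjusted p = 0.168). *Kcnh7* (Kv11.3) was at 0.147 ± 0.0321 FPKM at D5 and 0.933 ± 0.0971 at D6, a rise of 2.75 (SE 0.31, adjusted p = 2.30e-05), and its exons overlap those of *Gca* on the other strand. *Kcnh1* (Kv10.1) was at 0.203 ± 0.0814 FPKM at D4 and 0.370 ± 0.0721 at D6; its call from D4 to D6 (adjusted p = 0.0359) held under 8 of 13 alternatives and was lost without D4 replicate 1, D6 replicate 2 or D6 replicate 3. Of 8 cardiac and skeletal muscle markers, 2 had a mean of at least 1 FPKM at D6, *Acta1* and *Actc1*, and *Tnnt2*, *Myh6* and *Nkx2-5* were at 0.09, 0.05 and 0.0733 FPKM.

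All 3 Hcn members, the pacemaker channels, rose. *Hcn4* was at 0.43, 0.58 and 0.34 FPKM at D4, 1.79, 1.26 and 1.65 at D4H8, 9.41, 5.84 and 6.34 at D5 and 16.5, 14.9 and 14.8 at D6. Each stage stood above the one before in every library, and the D6 over D4 change was 5.15 (SE 0.26, adjusted p = 1.48e-09). *Hcn3* rose at every step too, from 0.737 ± 0.134 to 15.1 ± 3.89 FPKM, and the *Hcn4* and *Hcn3* means at D6 lay within their spread. *Hcn2* rose only at the last step, from 2.60 ± 0.825 to 7.89 ± 1.96 FPKM, a log2 fold change of 1.72 (SE 0.39, adjusted p = 0.00376). The summed FPKM of the 3 was 2.48 ± 0.781 at D4 and 38.4 ± 6.76 at D6.

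**Figure D3:**
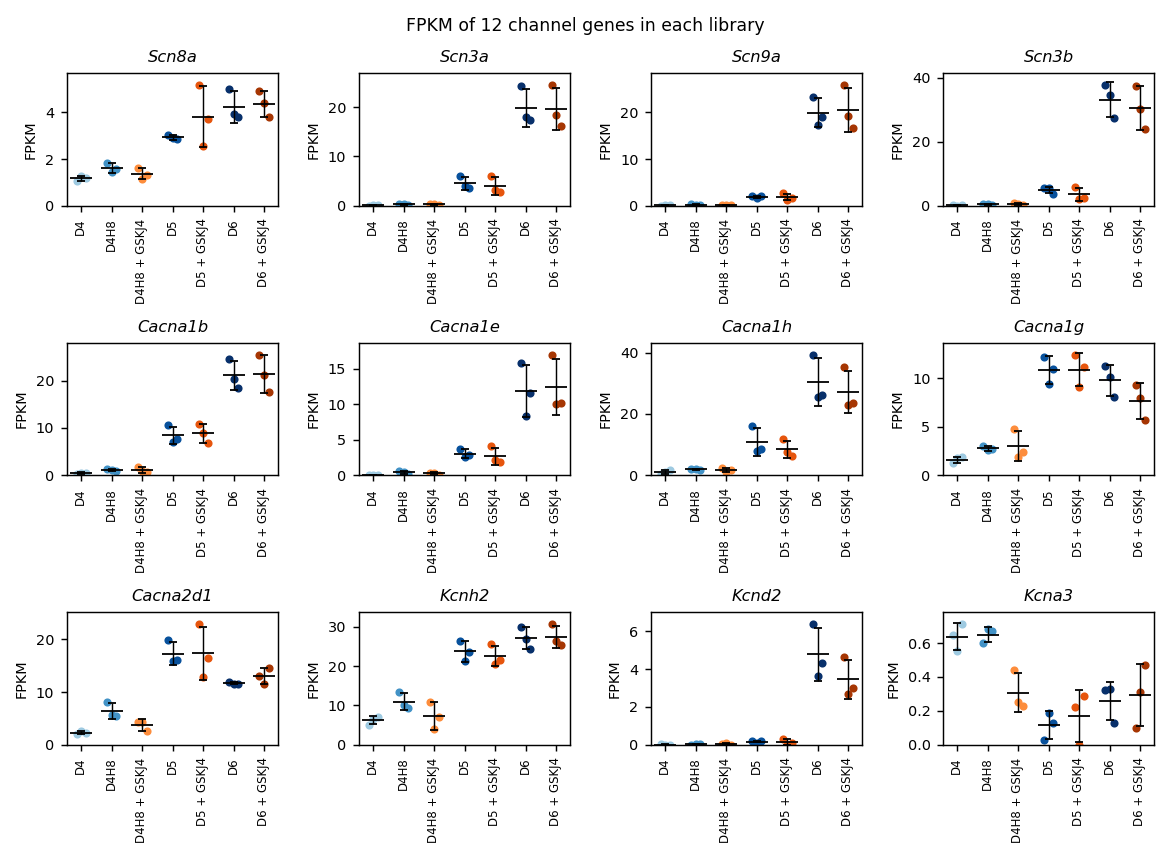
FPKM of 12 channel genes in each library of the 7 groups, with points for libraries, a bar for the mean and whiskers of 1 SD (n = 3); each panel has its own scale from 0. *Cacna2d1* had its highest untreated mean at D5 (17.3 FPKM), *Kcnd2* stood at 0.167 at D5 and 4.79 at D6, and *Kcna3* fell after D4H8.

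The members did not all rise at the same step. From D4 to D4H8, 13 of the 38 tested members rose and none fell, against 4.06% and 0.32% of all tested genes. They were *Scn3a*, *Scn9a*, *Scn3b*, *Cacna1b*, *Cacna1c*, *Cacna1e*, *Cacna1g*, *Cacna2d1*, *Kcnc1*, *Kcnd3*, *Kcnh2*, *Hcn3* and *Hcn4*. Without D4 replicate 1, or without D4H8 replicate 1, the count fell to 7, and *Scn3a*, *Scn9a*, *Cacna1b*, *Cacna1g*, *Kcnd3* and *Kcnh2* were no longer called. *Scn3a*, *Cacna1g* and *Kcnh2* were also lost without D4 replicate 2, *Scn9a* and *Kcnd3* without D4 replicate 3, and *Scn3a* and *Kcnd3* without D4H8 replicate 2. *Scn3b* and *Hcn3* were lost only in 1 fit over 21 libraries, so 5 of the 13 were called under every alternative that tested them. From D4H8 to D5, 25 rose and 2 fell (*Cacnb2* and *Kcna3*), against 17.2% and 10.5% of all tested genes, and 21 of the 27 calls held under every alternative that tested the gene. The *Cacnb3* call was lost without D4H8 replicate 1 or 2 or any one D5 library (adjusted p up to 0.147 over its alternatives), that of *Scn1a* without replicate 2 or 3 of either stage, that of *Kcnq3* without replicate 2 of either stage and that of *Cacnb2* without D4H8 replicate 3. From D5 to D6, 30 rose and 1 fell (*Cacna2d1*), against 19.2% and 15.1%, and 24 of the 31 calls held in the same way. The *Kcnq5* call was lost without D5 replicate 1 or 3 or any one D6 library (adjusted p up to 0.170 over its alternatives), that of *Kcnq3* without any one D5 library or D6 replicate 2, and that of *Kcnb2* without D5 replicate 2 or 3 or D6 replicate 1. The median log2 fold changes of the members at these 3 steps were 0.41, 1.21 (1.14 with *Kcna2* at its bound) and 1.52, where those of all genes were -0.02, 0.01 and -0.02.

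Of the 38, 9 rose at all 3 steps: *Scn3a*, *Scn9a*, *Scn3b*, *Cacna1b*, *Cacna1c*, *Cacna1e*, *Kcnc1*, *Hcn3* and *Hcn4*, a course of 1.88% of all tested genes. Of these 9, only *Cacna1e* and *Hcn4* kept all 3 calls under every alternative that tested them. Another 12 rose at the last 2 steps only (7.71% of all genes), among them *Scn8a*, *Cacna1h*, *Cacnb3*, *Kcna6* and *Kcnd2*, and 8 rose at the last step only (9.09% of all genes, with no call at the others): *Scn2b*, *Cacna1d*, *Cacna2d2*, *Cacna2d3*, *Kcnc2*, *Kcnq5*, *Kcnh7* and *Hcn2*. *Cacna1g*, *Kcnd3* and *Kcnh2* rose at the first 2 steps and were not called at the last (0.805% of all genes), though all 3 lost the first call without single libraries, as above. *Cacna1i*, *Kcnc4* and *Kcnh1* were not called at any step, like 53.5% of all genes. A gene called at one step and not at the next is not shown to change at different rates there, and the difference between steps was not tested.

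**Figure D4:**
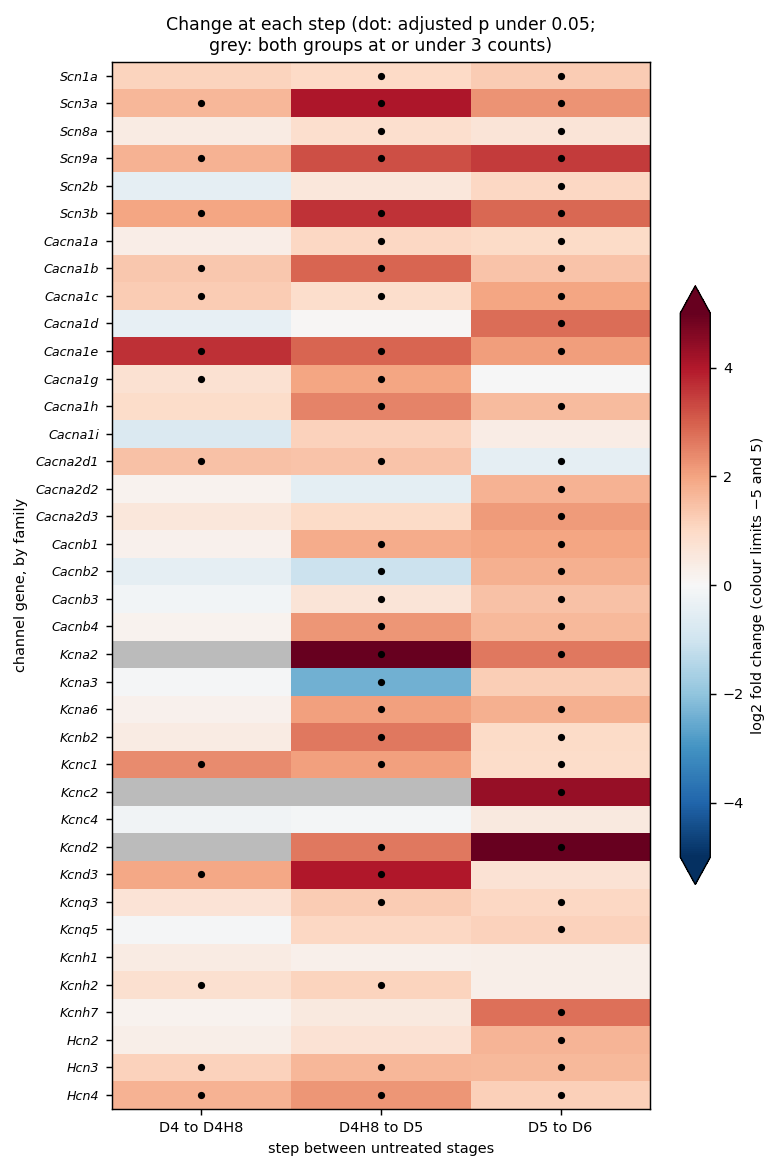
Log2 fold change of the 38 tested channel genes (rows, by family) at each untreated step (columns), red for a rise and blue for a fall, with a dot where the adjusted p was under 0.05. The first column holds 13 dots, the second 27 and the third 31; grey cells have a mean of at most 3 counts in both groups.

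Other genes of excitability moved over the same days, when 32.9% of all tested genes rose and 31.0% fell. Of 37 other voltage-gated channel genes, 30 were tested, and 16 rose and 5 fell from D4 to D6. *Kcnh8* rose from 0.0267 ± 0.00577 to 4.01 ± 0.129 FPKM, while *Hvcn1*, a proton channel, fell from 3.16 ± 0.307 to 0.720 ± 0.403. Of 31 auxiliary and modulatory subunits, 25 were tested, and 22 rose and 1 (*Kcnip3*) fell. Among them *Cacng2*, also an AMPA receptor partner, went from 0.00333 ± 0.00577 to 3.94 ± 0.505 FPKM and *Kcnip1*, a Kv4 partner, from 0.04 ± 0.02 to 3.03 ± 0.560. All 12 tested genes of 13 for the axon initial segment, where sodium and Kv7 channels gather, rose, with *Cntn2* from 1.55 ± 0.799 to 60.2 ± 14.1 FPKM and *Trim46* from 0.950 ± 0.236 to 18.1 ± 3.98. Of 23 inward rectifier and two-pore potassium channels, 16 were tested, and 10 rose and 5 fell: *Kcnk10* rose from 0.03 ± 0.0265 to 6.07 ± 1.12 FPKM and *Kcnk9* from 0.00333 ± 0.00577 to 1.86 ± 0.150, and *Kcnk5* fell from 6.01 ± 0.932 to 1.69 ± 0.961 and *Kcnk1* from 8.41 ± 2.05 to 2.42 ± 1.13. The median log2 fold changes of these 4 lists were 1.39, 3.40, 3.28 and 3.38, against 3.53 for the 38 tested members and -0.04 for all tested genes.

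The GSKJ4 comparisons ask how the channel genes change when H3K27 demethylases are inhibited for a day. At D4H8, none of the 34 tested members was called, against 2.11% of all tested genes called higher and 1.85% lower. With no adjustment 5 of them had p under 0.05, 3 higher and 2 lower (25.1% of all genes did), and DESeq2 called 1, *Kcnq3*, against 6.74% of all its tested genes higher and 5.0% lower. With the replicate number as a block, although the numbers did not pair these libraries, *Kcnq3* was called higher and *Cacna2d1* and *Kcnh2* lower, against 7.59% and 6.39% of all genes. Member log2 fold changes, GSKJ4 over untreated, ran from -1.25 (*Scn1a*) to 1.53 (*Kcnq3*), with a median of 0.18 against 0.02 over all genes. *Kcnq3* was at 0.07, 0.05 and 0.07 FPKM in the untreated libraries and 0.21, 0.21 and 0.12 with GSKJ4. The groups did not overlap, and the log2 fold change was 1.53 (SE 0.43, adjusted p = 0.0744), with adjusted p from 0.0179 to 0.264 over the alternatives. Groups without overlap were common at D4H8. With GSKJ4, 2616 of all 16269 tested genes lay wholly higher and 2784 wholly lower, against 5 and 3 of the 34 tested members.

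*Cacna1d* was at 0.08, 0.08 and 0.04 FPKM untreated and 0.2, 0.17 and 0.12 with GSKJ4, again without overlap, and the log2 fold change was 1.23 (SE 0.43, adjusted p = 0.117). *Cacna2d1*, which had risen by this stage in untreated cultures, was at 8.09, 5.63 and 5.5 FPKM untreated and 4.37, 4.36 and 2.54 with GSKJ4. Its D4 mean was 2.27, and the treated library at 2.54 lay within the range of the D4 libraries. Treated cultures were not tested against D4. Every treated library was below every untreated one, and the log2 fold change was -0.80 (SE 0.28, adjusted p = 0.121), with adjusted p from 0.00816 to 0.412. The other 2 with an unadjusted p under 0.05 were *Kcnh7* (1.09, SE 0.41) and *Kcna3* (-1.11, SE 0.46). In the same libraries 3 of 7 tested MN markers and 3 of 6 progenitor markers were called lower and none higher. The summed FPKM of the 8 MN markers ranged from 60.6 to 63.4 untreated and from 15.8 to 37.7 with GSKJ4, and that of the 6 progenitor markers from 353 to 516 and from 109 to 198. Their part in the channel values was not tested. Among the other channel lists, *Adam22*, an axon initial segment and synaptic protein (1.31, SE 0.28, adjusted p = 0.0387), and *Kcnj4*, an inward rectifier (1.88, SE 0.37, adjusted p = 0.0311), were the genes called, both higher.

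At D5, none of 34 tested members was called by edgeR or by DESeq2, and none had an unadjusted p under 0.05. Over all genes edgeR called 0.00613% higher and 0.0% lower, DESeq2 called 0.151% and 0.212%, and 4.7% had an unadjusted p under 0.05. Member log2 fold changes ran from -0.57 (*Cacna1c*) to 0.61 (*Cacna2d3*). In the same libraries none of the 8 MN markers was called by edgeR, and 5 had an unadjusted p under 0.05, all lower. The summed FPKM of these 8 markers ranged from 261 to 314 untreated and from 171 to 206 with GSKJ4. Their part in the D5 channel values was not tested. The 3 members with the lowest p are given as values. *Cacnb3* was at 18.7, 17.6 and 21.99 FPKM untreated and 20.4, 31.3 and 22.3 with GSKJ4, where the libraries overlapped. *Cacna1c* was at 0.45, 0.34 and 0.37 untreated and 0.39, 0.2 and 0.21 with GSKJ4, and *Scn8a* at 3.05, 2.88 and 2.84 and 5.16, 2.54 and 3.72. The count of called members was 0 with and without D5 + GSKJ4 replicate 2, in which 10 members had no count, and the standard errors of members at 0 there were wide (1.04 for *Cacnb4* and 1.20 for *Kcnd2*).

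At D6, none of 37 tested members was called, none had an unadjusted p under 0.05, and DESeq2 called none; edgeR called 0.0% of all genes in either direction, DESeq2 called 0.0% higher and 0.00326% lower, and 1.36% had an unadjusted p under 0.05. The largest difference was that of *Kcnc2*, at 0.51, 0.6 and 0.28 FPKM untreated and 0.25, 0.34 and 0.21 with GSKJ4 (-0.80, SE 0.38, unadjusted p = 0.0687). *Cacna1d* was at 0.46, 0.54 and 0.36 untreated and 0.3, 0.41 and 0.27 with GSKJ4, and *Cacna2d3* at 1.63, 1.14 and 1.13 and 1.24, 0.89 and 0.63. The treated and untreated libraries overlapped for all 37, where 5.17% of all tested genes did not overlap.

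The same-numbered libraries deviated together at D6, and with the replicate number as a block 3 members were called, all lower with GSKJ4; 0.294% of all genes were higher and 1.28% lower in that fit. *Cacna1g* was at 11.2, 10.2 and 8.09 FPKM in untreated replicates 1, 2 and 3 and 9.37, 7.99 and 5.7 in the treated ones, lower in 3 of 3 pairs, with a blocked log2 fold change of -0.38 (SE 0.06, adjusted p = 6.67e-04). *Kcnd2* was at 6.37, 3.66 and 4.33 untreated and 4.66, 2.7 and 3 with GSKJ4, lower in 3 of 3 pairs, at -0.48 (SE 0.09, adjusted p = 0.00635). *Cacna1h* was at 39.3, 25.4 and 26.1 and 35.2, 22.8 and 23.5, lower in 3 of 3 pairs by a smaller margin, at -0.16 (SE 0.04, adjusted p = 0.0389). Its log2 fold change in the fit with no block turned from -0.16 to 0.11 without D6 replicate 1. None of the 3 was called without the block. All 3 were above their D4 means with GSKJ4, with 1.60, 0.0133 and 1.05 FPKM at D4. Treatment began at D5, where the untreated means were 10.9, 0.167 and 10.9 FPKM. Every treated *Cacna1g* library lay below its D5 mean, and the untreated D6 mean was 9.83. Every treated *Kcnd2* and *Cacna1h* library lay above its D5 mean. Treated D6 cultures were not tested against D4 or D5. *Kcnc2*, *Cacna1d* and *Cacna2d3*, which the block did not call, were also lower in 3 of 3 pairs. The share of all genes lower in 3 of 3 pairs was not counted. The high members *Scn9a*, *Scn3a*, *Scn3b*, *Cacna1b* and *Cacnb3* had log2 fold changes of 0.04, -0.03, -0.13, 0.01 and -0.01 with GSKJ4 at D6, with SEs of 0.21, 0.22, 0.22, 0.19 and 0.17.

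**Figure D5:**
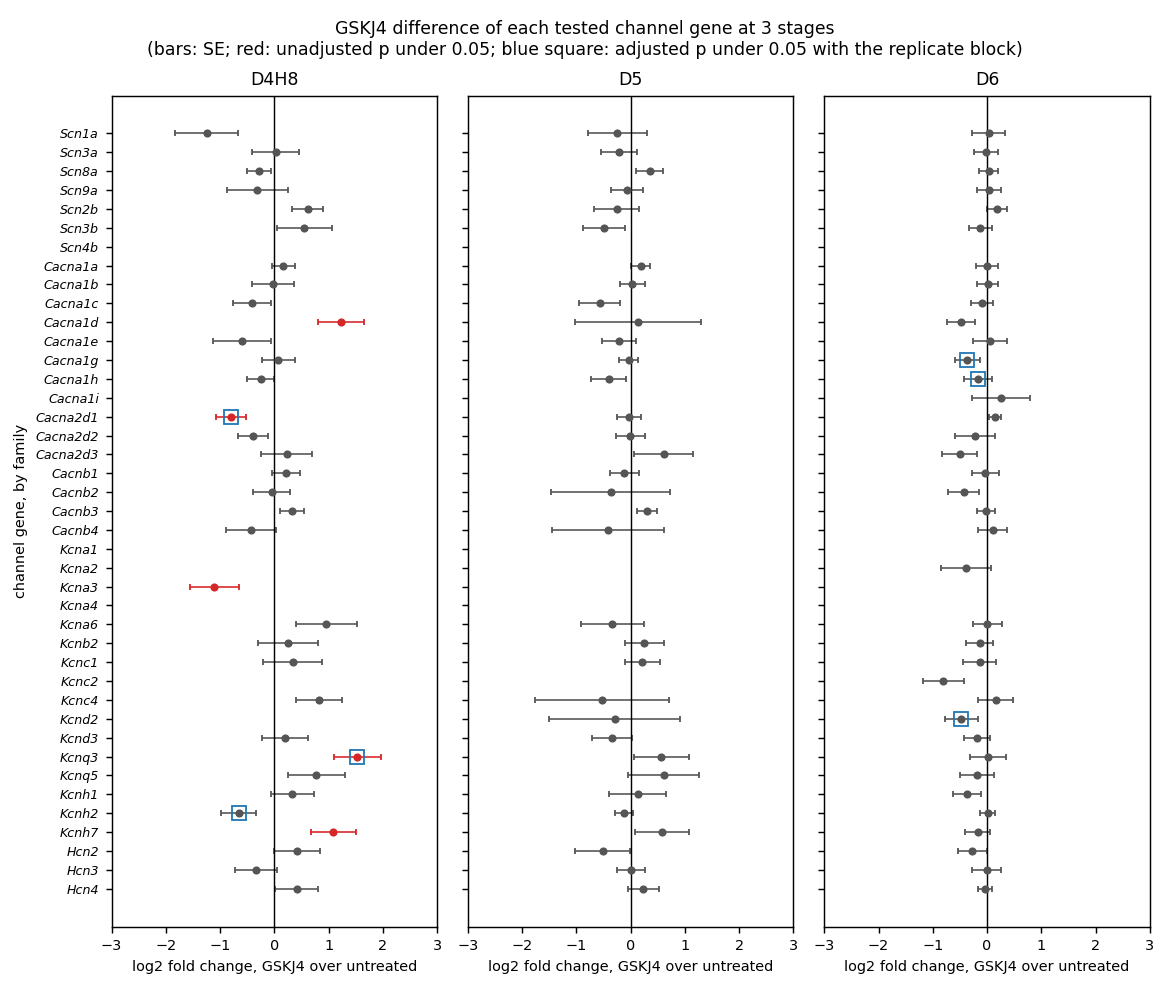
Log2 fold change, GSKJ4 over untreated, of each tested channel gene at D4H8, D5 and D6, with bars of 1 SE. Red marks an unadjusted p under 0.05 (5 genes at D4H8, none at D5 or D6), and blue squares mark an adjusted p under 0.05 with the replicate block (3 genes at D4H8 and 3 at D6). No gene passed the adjusted threshold without the block.

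Whether the GSKJ4 difference itself changed with stage was tested over the 18 libraries of D4H8, D5 and D6. No member of 39 tested was called in any of the 3 differences between stages, against 0.249% of all genes for D5 minus D4H8, 0.735% for D6 minus D4H8 and 0.0% for D6 minus D5. With no adjustment, 1, 5 and 0 members had p under 0.05, against 10.0%, 13.7% and 1.98% of all genes, and DESeq2 called 0, 1 and 0, against 1.88% higher and 1.87% lower for D6 minus D4H8. For D6 minus D4H8 these were *Kcna2*, *Kcnc2*, *Kcnq3*, *Kcnh7* (all negative) and *Cacna2d1* (positive). *Cacna2d1* differed by 0.96 (SE 0.37, adjusted p = 0.262), and *Kcnq3* by -1.51 (SE 0.56, adjusted p = 0.241). *Kcna2*, the member that DESeq2 called, had 0, 0 and 0 counts untreated and 9, 8 and 2 with GSKJ4 at D4H8, so that value rests on a few reads.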

How the data were processed

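Poly-A RNA-seq of 21 libraries was used, in 7 groups of 3 that the labels call biological replicates. Per the labels and methods, the authors trimmed reads with Fastp, aligned them to mm10 with Hisat2, sorted them with SAMtools and counted reads per gene with HTSeq-count. The deposited table gives counts per gene and FPKM made by the authors from those counts; recomputed FPKM lay within 0.005 of theirs. The counting strand is not given in the sources used here.

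Counts were tested with edgeR 4.0.16 (TMM scaling, filterByExpr with a minimum of 10 counts, quasi-likelihood F-test, Benjamini-Hochberg adjustment over all tested genes, threshold 0.05) in R 4.3.3. The 4 untreated comparisons shared 1 fit of 12 libraries (17519 genes), each GSKJ4 comparison used its own 6 libraries (16269 genes at D4H8, 16309 at D5, 16301 at D6), and the differences between stages used 18 (18103 genes). The untreated comparisons share control libraries. Fold changes are log2. Each SE was derived from the quasi-likelihood test, as the absolute log2 fold change over the square root of the F statistic, and is approximate at low counts. Levels of different genes were compared in FPKM only. A fold against a group with at most 3 counts in each library is given as a lower bound, and no fold is given where both groups had a mean of at most 3 counts. Tables and figures were made with Python 3.11.15, pandas 2.3.3 and matplotlib 3.10.9.

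The members and the gene lists were chosen with earlier results of these data known. Genes given in every library were the highest tested member of each family at D6, the members with the largest called rises from D4 to D6 and those that fell, and the 3 lowest p values in each GSKJ4 comparison. Alternatives were DESeq2 1.42.0, scaling by RLE or by the upper quartile, a looser filter (none) and a stricter one (each library at 10 counts or more), the replicate number as a block, 1 fit over 21 libraries, and leaving out each library. Same-numbered libraries were taken as pairs where every correlation of their deviations was over 0.1, which held at D6 (0.754, 0.429 and 0.571) and at the untreated neighbouring steps. Values of some other channel genes are not reported here. Precision is limited by counting at low counts and by 3 libraries a group.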

Additional observations from a re-analysis of the deposited data

How the results depend on the processing

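Of 1498 values of single members under an alternative, 1397 kept their direction and side of the threshold, 90 kept direction but lost the threshold, 10 gained it and 1 reversed: *Cacna1h* with GSKJ4 at D6 was 0.11 without D6 replicate 1, and ranged from -0.43 to 0.11 without single libraries. The cause was not tested. The 13 members that rose from D4 to D4H8 became 7 with 1 fit over 21 libraries (2.3% of all genes called) and 7 to 13 without single libraries, with 7 without D4 replicate 1 (2.18% of all genes) and without D4H8 replicate 1 (1.94%). Requiring at least 10 counts in every library left 24 members to test, of which 17 were called from D4H8 to D5 (32.5% of all genes) and 23 from D4 to D6 (68.5%). With GSKJ4 at D4H8, where none was called, DESeq2 called 1 (*Kcnq3*), no filter 4 (*Cacna2d1*, *Kcna2*, *Scn4b* and *Kcnq3*), the replicate block 3 (*Kcnq3* higher, *Cacna2d1* and *Kcnh2* lower) and 1 fit over 21 libraries 3 (*Kcna2* and *Kcnq3* higher, *Cacna2d1* lower), where 11.7%, 7.34%, 14.0% and 11.2% of all genes were called. At D4H8 and D5 the replicate numbers did not meet the limit of 0.1 for pairs (lowest correlations 0.090 and 0.059), nor from D4 to D6. At D5 and from D4 to D6, each library still correlated best with the same-numbered library of the other group. At D6 the block called 3 (1.58% of all genes). For the GSKJ4 difference at D6 minus D4H8, DESeq2, upper-quartile scaling, the block and 1 fit over 21 libraries each called 1 (*Kcna2*), no filter 2 (*Kcna2* and *Cacna2d1*), and leaving out a library 0 to 1, with 1 without D4H8 + GSKJ4 replicate 3; 0.939% to 3.75% of all genes were called under these settings. With the block, 13 rose from D4 to D4H8, 26 rose and 2 fell to D5, and 31 rose and 1 fell to D6 (4.78% of all genes rose at the first, 18.5% rose and 12.4% fell at the second, and 20.8% rose and 17.2% fell at the third). At a limit of 2 FPKM in place of 1, 3 members passed at D4 and 5 at D4H8. Members with few counts, such as *Kcna2*, *Cacna1i* and *Kcna4*, are limited by depth.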
